A study of Mus musculus with 8 samples.

Results

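H3K27me3 was examined at 53 mouse homeobox transcription factor genes outside the Hox clusters and the Pax family, covering LIM (Lhx, Isl1), Nkx, SINE (Six2, Six3, Six6), Dlx, Irx, Cdx and related genes. The measurements are the regions of the authors' deposited table that overlapped the RefSeq span of a listed gene extended by 2 kb on either side, with all coordinates in GRCm38. Of the 265968 regions in that table, 258 did so, and they fell on 37 of the 53 genes, with 0 regions shared between 2 of them. The cells were 3T3 fibroblasts, an immortalised mouse line, with 3 H3K27me3 immunoprecipitation libraries from cells carrying an NNMT overexpression construct and 3 from cells carrying a control construct, plus 1 input library per construct. NNMT is nicotinamide N-methyltransferase, which consumes the methyl donor S-adenosylmethionine, and the comparison addresses where H3K27me3 differs between the constructs. The medium of all cells held 10 µM methionine with 10% dialyzed serum, and growth in it lasted 48 h. Chromatin was fixed with 1% formaldehyde and cut with micrococcal nuclease before immunoprecipitation with antibody C36B11. The labels number the libraries as replicates without saying that they came from separate cultures, so the spread between them may be technical. The labels do not say whether either construct was carried by 1 clone or by a pool. The table gives 3 values for a set of libraries listed first, here called set 1, and 3 for a set listed second, called set 2, without saying which is NNMT, so no direction below is tied to NNMT.

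A homeodomain is a short helical DNA-binding domain, and the genes that encode it set regional identity and cell fate in the embryo, from forebrain and eye to limb, heart and gut. Many of their promoters lie in long CpG-rich stretches, and in cells of other lineages these genes are classical targets of the Polycomb repressive complexes, of which PRC2 writes H3K27me3. In fibroblasts most neural, endodermal and craniofacial homeobox genes are silent, whereas a few, such as the mesenchymal factor Prrx1, are typical of connective tissue.

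Promoter windows of 6 genes are shown first, because they place the results at the gene starts. Each holds 300 bases, from 250 before to 50 after a RefSeq start (GRCm38.p6), and CpG dinucleotides are in capitals. At Six3 and Lhx1 a listed region covered the whole window, at Six6 and Gsc a region reached into part of it, and at Nkx2-2 and Msx1 regions lay on both sides but not over it.
Six3 (chr17:85620584-85620883, plus strand): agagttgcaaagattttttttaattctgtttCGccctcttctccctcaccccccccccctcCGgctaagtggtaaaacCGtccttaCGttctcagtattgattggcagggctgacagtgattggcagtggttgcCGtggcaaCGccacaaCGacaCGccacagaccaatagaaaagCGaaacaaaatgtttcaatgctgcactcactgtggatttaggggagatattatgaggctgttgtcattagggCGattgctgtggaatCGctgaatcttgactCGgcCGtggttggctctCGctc
Six6 (chr12:72939632-72939931, plus strand): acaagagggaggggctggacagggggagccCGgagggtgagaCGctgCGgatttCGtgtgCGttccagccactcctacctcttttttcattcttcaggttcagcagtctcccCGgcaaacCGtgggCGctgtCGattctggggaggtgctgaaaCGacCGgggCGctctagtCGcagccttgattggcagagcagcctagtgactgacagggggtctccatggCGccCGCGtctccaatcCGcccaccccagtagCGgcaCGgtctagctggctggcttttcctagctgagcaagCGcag
Lhx1 (chr11:84525485-84525784, minus strand): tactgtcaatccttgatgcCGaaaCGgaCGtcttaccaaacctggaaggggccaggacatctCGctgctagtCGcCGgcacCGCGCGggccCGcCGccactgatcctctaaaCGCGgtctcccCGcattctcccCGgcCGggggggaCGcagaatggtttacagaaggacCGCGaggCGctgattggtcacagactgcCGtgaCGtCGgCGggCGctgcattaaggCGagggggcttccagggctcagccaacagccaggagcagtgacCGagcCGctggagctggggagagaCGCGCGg
Gsc (chr12:104473187-104473486, minus strand): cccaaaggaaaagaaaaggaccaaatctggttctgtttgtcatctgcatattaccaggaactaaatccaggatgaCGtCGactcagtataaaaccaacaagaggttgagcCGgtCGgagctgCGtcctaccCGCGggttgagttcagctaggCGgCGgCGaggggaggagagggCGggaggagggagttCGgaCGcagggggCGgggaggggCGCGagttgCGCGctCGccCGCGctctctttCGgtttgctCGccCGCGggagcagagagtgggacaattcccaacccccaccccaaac
Nkx2-2 (chr2:147186353-147186652, minus strand): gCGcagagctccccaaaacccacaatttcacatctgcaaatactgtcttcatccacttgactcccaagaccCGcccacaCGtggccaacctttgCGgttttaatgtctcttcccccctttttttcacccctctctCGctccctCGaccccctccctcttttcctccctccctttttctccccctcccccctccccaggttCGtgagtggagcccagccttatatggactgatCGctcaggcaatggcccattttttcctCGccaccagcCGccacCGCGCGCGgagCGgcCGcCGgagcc
Msx1 (chr5:37824536-37824835, minus strand): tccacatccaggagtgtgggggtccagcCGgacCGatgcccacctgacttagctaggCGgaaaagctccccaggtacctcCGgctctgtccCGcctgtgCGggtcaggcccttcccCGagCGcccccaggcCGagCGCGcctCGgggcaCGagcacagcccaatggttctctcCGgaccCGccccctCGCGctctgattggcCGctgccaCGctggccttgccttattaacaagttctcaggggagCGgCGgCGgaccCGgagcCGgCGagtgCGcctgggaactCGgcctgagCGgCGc
These windows hold 14 CpGs at Six3, 20 at Six6, 31 at Lhx1, 25 at Gsc, 17 at Nkx2-2 and 29 at Msx1. RefSeq windows were matched for 39 of the 53 genes, 47 windows in all, with a median of 19.0 CpGs against 14.0 over the windows of all named genes. The observed over expected CpG ratio had a median of 0.761 against 0.6. A listed region overlapped 12 of the 47 windows, against 8.99% of all windows. Counted by gene, 11 of 39 had a window under a region (28.2%), against 9.79% of all genes with a window. Among genes that carried a region at all, the shares were 11 of 27 (40.7%) and 31.2%. The 4 letters TAAT, the core that many homeodomains bind, or their complement ATTA, occurred in 28 of the 47 windows (59.6%) and in 51.0% of all windows. Within the genes studied, windows under a region held a median of 17.5 CpGs and the others 23.0. Over all named genes these medians were 5.0 and 16.0, so the lower count under regions is not particular to homeobox genes.

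The deposited values are whole numbers per region and library, and their sums over all listed regions lay between 35565866 and 41971892 per library. Set 1 exceeded set 2 by 1.14-fold in these sums, a shift of 0.19 on the log2 scale that rescaling the libraries to equal sums removes. Listed regions were also counted at marker genes of several cell types. These counts cannot check the cell type, because the list was selected for a difference between the sets. Of 12 fibroblast marker genes, among them Col1a1, Col3a1, Thy1 and Pdgfra, 0 carried a region, against 32.3% of all 20493 named genes. Endothelial markers did so in 4 of 5 cases, blood markers in 4 of 5, neuronal markers in 3 of 5 and epithelial markers in 2 of 5. The table holds a selected list: its highest p is 0.1, so a gene with no region may lack the mark or may carry it at a like level in both sets. Unequal DNA copy number in the cells of either construct, or an unequal fraction of cells with the mark, cannot be told apart from a difference in the mark per cell, since no input values are in the table.

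Homeobox genes carried listed regions in 69.8% of cases (37 of 53), against 32.3% of all named genes. Where they did, the regions took up much of the gene: a median of 59.0% of the span plus flanks was covered, against 21.7% over all genes with a region, and 29 of the 37 genes were covered over more than 40%. The covered share depends on span length, and the genes were not matched for it in this comparison. Of the 258 regions, 163 were higher in set 1 (63.2%), against 59.5% of all listed regions, and 95 were higher in set 2. All 3 values of set 1 lay above all 3 of set 2 in 124 regions (40.5% of all listed regions did) and the reverse held in 50 (24.7% of all). The sets thus did not overlap in 67.4% of the regions at these genes and in 65.1% of all listed regions, which is close to the background.

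The differences at these genes were small in fold. The median region at a homeobox gene differed by 1.37-fold between the sets, and the median listed region by 1.7-fold. A 2-fold difference was reached by 48 of the 258 regions (18.6%), against 35.2% of all listed regions, and 26 of those 48 lay at Cdx1. The other 22 lay at 9 genes. The regions were also longer and fuller than most. Their median length was 850 bp against 450 bp, and their values had a median of 186 per kb and library against 141. Over the whole list, fuller regions differed by smaller folds. Among regions with a total of 3000 or more over the 6 libraries, the median absolute log2 ratio was 0.29 at the 56 regions of homeobox genes and 0.37 at all such regions. In the class from 1000 to 3000 the medians were 0.35 and 0.43, and from 300 to 1000 they were 0.5 and 0.64. Below that the order turned, with 1.05 against 1.01 from 100 to 300 and 2.19 against 1.7 under 100. Without Cdx1, which supplied 15 of the 24 homeobox regions under 100, the homeobox medians in these classes were 0.87 and 1.38.

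**Figure D1:**
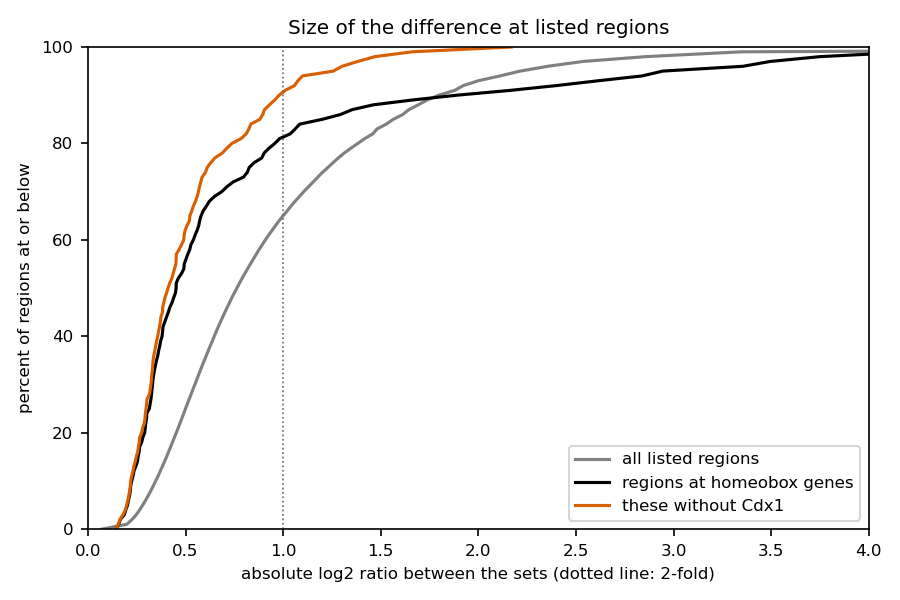
Cumulative percentage of regions (vertical axis) at or below each absolute log2 ratio between the sets (horizontal axis), for all listed regions, the 258 at homeobox genes and the 232 of these outside Cdx1. Both homeobox curves lie to the left of the curve for all regions over most of the range below the dotted 2-fold line, and the homeobox curve with Cdx1 crosses it beyond that line because of that gene's regions.

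Summed over its regions, a gene was counted as separated where its 3 library sums in either set exceeded each of those in the opposite set. This is the outcome with the smallest two-sided exact permutation p that 3 against 3 allow, 0.1, so no single gene can pass 0.05. Separation was found at 31 of the 37 genes (83.8%), against 81.6% of all genes with a region. Set 1 was higher at 18 of them (48.6% of the 37, against 59.6% of all genes with a region), and set 2 at 13 (35.1% against 22.0%). After rescaling to equal library sums the balance turned, to 10 genes separated towards set 1 (27% against 47.7% of all genes with a region) and 17 towards set 2 (45.9% against 31.3%). Counting direction alone, set 1 was higher at 21 of the 37 genes and set 2 at 16, and after rescaling to equal library sums 17 and 20, with Otx2, Tlx1, Msx2 and Pitx1 changing direction. The median log2 ratio of set 1 over set 2 was 0.15, against 0.38 over all genes with a region, and after rescaling it was -0.05 against 0.18. A 2-fold difference in sums was reached at 3 of the 37 genes, namely Cdx1, Lhx6 and Isl1 (8.11%), against 21.7% of all genes with a region.

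**Figure D2:**
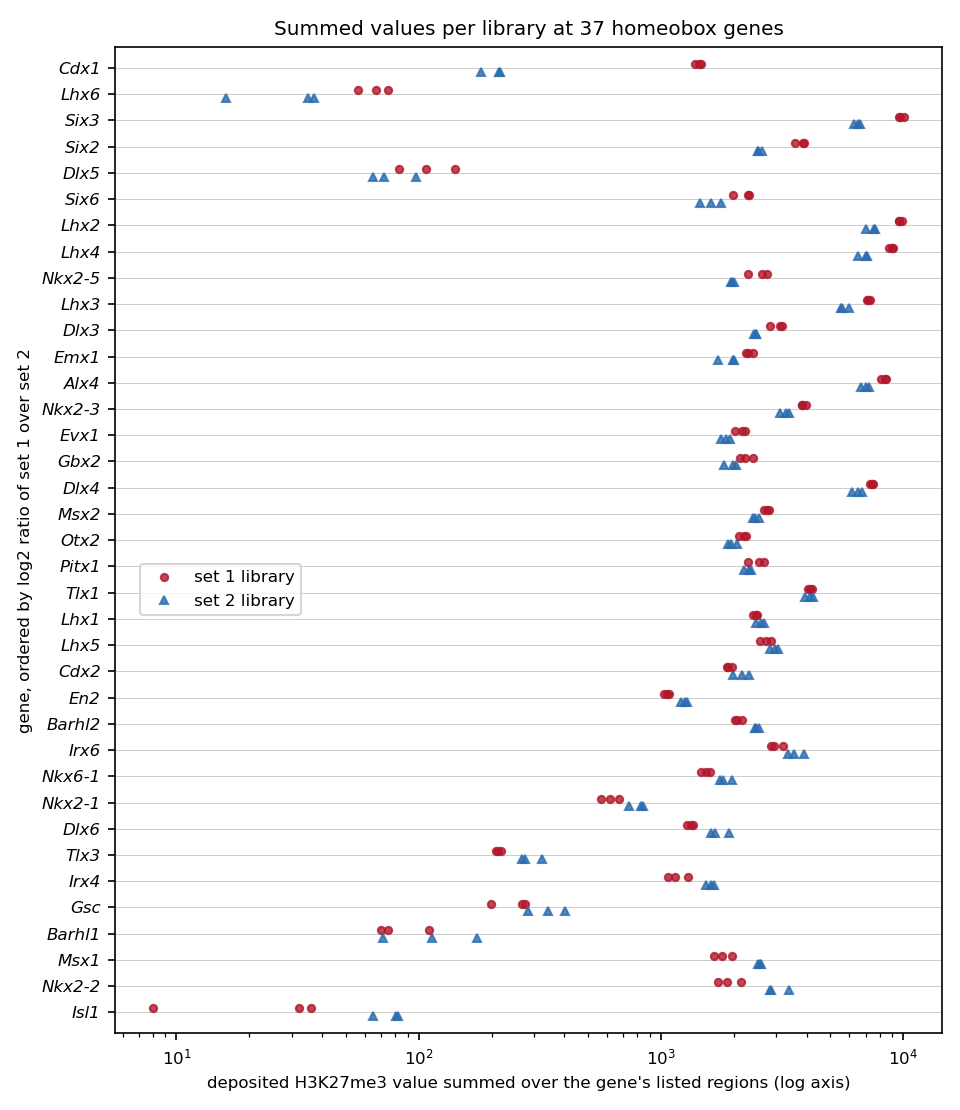
Deposited values summed over the listed regions of each of the 37 homeobox genes with a region (log axis), drawn as circles (set 1, 3 libraries) and triangles (set 2, 3 libraries) and ordered by log2 ratio. The sets are far apart at Cdx1, at the top (7.0-fold), close together through most of the order, and apart the other way at Isl1, at the bottom (3.0-fold).

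Cdx1 differed most. This caudal-type gene, which acts in axial patterning and intestinal identity, and its relatives Cdx2, Evx1 and Gbx2 belong to the Hox-like class outside the clusters. The sums over the 26 regions of Cdx1 (chromosome 18, 61018862 to 61036199) were 1464, 1381 and 1431 in set 1 against 214, 216 and 181 in set 2. The sets do not overlap, and the ratio was 7.0 (range over the 9 library pairs 6.39 to 8.09). All 26 regions were higher and separated in set 1, with log2 ratios from 1.79 to 4.69 and a median of 2.95. They were short, from 50 to 1800 bp, and 15 had a total under 100, so single ratios rest on small values. A set 2 library stood at 0 in 14 of them. The fullest region (61016251 to 61018050, in the flank) read 476, 428 and 445 in set 1 against 101, 102 and 71 in set 2, a ratio of 4.92. The regions stopped 3.4 kb short of the upper end of the gene, and the next listed region in that direction lay 186 kb away, beyond Pdgfrb, which encodes a platelet-derived growth factor receptor and carried 0 regions.

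On the other side the difference continued past Cdx1. Slc6a7, a proline transporter gene, held 3 regions, 1 of them shared with Cdx1, with sums 6.27-fold higher in set 1, and Camk2a, a neuronal kinase gene, held 38 regions, all higher in set 1, at 2.92-fold. These 3 neighbours were named for their position after the values were seen. Within 100 kb outside Cdx1, 44 of 44 regions were higher in set 1, against 59.5% of all listed regions, and their sums differed by 3.36-fold. All 44 lay on this side of Cdx1, so they can include regions of Slc6a7 and Camk2a already counted. Within 500 kb the ratio was 1.62 and within 1 Mb it was 1.4.

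The rest of the Hox-like class differed little. At Cdx2 (chromosome 5, 147300900 to 147307249), the intestinal and trophectoderm regulator, the sums were 1872, 1897 and 1965 in set 1 against 2312, 1985 and 2166 in set 2. The sets do not overlap, but only just, and set 2 was higher by 1.13-fold (1.01 to 1.24 over pairs). Of its 5 regions, 1 was separated towards set 1 and 2 towards set 2. Evx1, an even-skipped homologue next to the HoxA cluster, and Gbx2, a midbrain-hindbrain boundary factor, were both 1.15-fold higher in set 1 in sums, and both stood at a log2 ratio of 0.01 after rescaling. At Gbx2 a flank region of 5.5 kb, lying largely outside the span plus flanks, supplied 8323 of the total of 12597. It was the only separated region of Gbx2. Cdx1 and Cdx2, close relatives in sequence, thus stood in opposite directions, at log2 ratios of 2.8 and -0.17.

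The SINE-class genes Six2, Six3 and Six6 were higher in set 1, with 26 of 26 regions in that direction, also after rescaling, against 59.5% of all listed regions. Of the 26, 19 were separated (73.1%), against 65.1% of all listed regions in either direction and 40.5% towards set 1. They act in forebrain, eye and kidney. Six3 (chromosome 17, 85613608 to 85626191), a forebrain and eye regulator, was covered over 93.7% by 2 long regions. Its sums were 9703, 10134 and 9665 in set 1 against 6284, 6622 and 6511 in set 2, which do not overlap, a ratio of 1.52 (1.46 to 1.61). The longer region, 16.7 kb, runs over the promoter window printed above and had a ratio of 1.54 (1.49 to 1.62).

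Six2, a kidney progenitor factor, lies beside Six3 (chromosome 17, 85662736 to 85688254). Its 18 regions gave sums of 3852, 3892 and 3581 in set 1 against 2518, 2607 and 2517 in set 2, a ratio of 1.48 (1.37 to 1.55). Every region of this gene was higher in set 1 and 13 were separated, and the difference ran along the gene at log2 ratios from 0.28 to 1.06. Six6, an eye and pituitary factor on chromosome 12 (72939882 to 72944899), gave 2298, 2314 and 1983 in set 1 against 1766, 1609 and 1445 in set 2, again without overlap (1.37-fold, 1.12 to 1.6). The region reaching into its printed promoter window, 1900 bp long, was 1.41-fold higher in set 1.

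The LIM class, which pairs LIM domains with a homeodomain and specifies neurons and pituitary cells, was of both kinds. Of 9 genes, 7 carried regions, 4 of them separated towards set 1 (57.1%) and 1 towards set 2 (14.3%). Over all genes with a region these shares were 59.6% and 22.0%. Lhx2 (chromosome 2, 38339271 to 38369737), a forebrain, eye and hair follicle factor, was covered over 85.3%. Its sums were 9939, 9661 and 9622 in set 1 against 7590, 7675 and 7054 in set 2, clearly apart, a ratio of 1.31 (1.25 to 1.41). Set 1 was higher in 10 of its 12 regions and separated in 9. The 2 regions higher in set 2, 550 and 500 bp long, abut regions higher in set 1 on both sides, and their sets overlap. Lhx3 and Lhx4, a pair of pituitary and motor neuron factors, were 1.26-fold and 1.3-fold higher in set 1. The single region at Lhx3 is 22.4 kb long and reaches well outside the gene. At Lhx4 all 19 regions were higher in set 1, 15 of them separated.

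Lhx6 and Isl1 showed larger folds on small values. Lhx6, a factor of cortical interneurons (chromosome 2, 36081950 to 36105992), was touched only in its flank by 2 regions, with sums of 67, 75 and 56 in set 1 against 16, 37 and 35 in set 2. The sets do not overlap, and the ratio of 2.25 ranged from 1.51 to 4.69 over pairs. Isl1, a factor of motor neurons, heart and pancreas (chromosome 13, 116298270 to 116309688), held 2 regions with sums of 8, 36 and 32 in set 1 against 82, 81 and 65 in set 2. Here set 2 was higher throughout, by 3.0-fold (1.81 to 10.2), and the regions covered 2.92% of the span plus flanks. The library at 8 sets the upper end of that range, and without it the log2 ratio moved from -1.57 to -1.15.

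Lhx1 and Lhx5, a pair of forebrain, kidney and spinal cord factors, had overlapping sets and mixed regions. The sums at Lhx1 were 2394, 2482 and 2496 in set 1 against 2585, 2474 and 2664 in set 2, an exchange of order that leaves the ratio at 1.05 towards set 2 (0.991 to 1.11). Along the gene, however, 2 regions were separated towards set 1 and 2 towards set 2. The region at its lower end (84515051 to 84518100) was 1.1-fold higher in set 1, and the one over the printed promoter window (84523451 to 84526750) read 684, 717 and 839 in set 1 against 952, 875 and 932 in set 2, 1.23-fold higher in set 2. At Lhx5 (chromosome 5, 120431886 to 120441457) set 2 was higher by 1.08-fold in sums (0.99 to 1.19), with 2 regions separated towards set 1 and 3 towards set 2. Both genes moved further towards set 2 and became separated after rescaling, at log2 ratios of -0.26 and -0.31.

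The NK-like class was the largest, with 17 of 23 genes carrying regions. Of the 17, 6 were separated towards set 1 (35.3%) and 8 towards set 2 (47.1%), against 59.6% and 22.0% of all genes with a region. Among its 85 regions 33 were higher in set 1 (38.8%), against 59.5% of all listed regions. Nkx2-2 (chromosome 2, 147176485 to 147195434), a ventral neural tube and pancreatic factor, stood furthest towards set 2. Its sums were 1878, 2137 and 1729 in set 1 against 2814, 3390 and 2857 in set 2, which do not overlap, a ratio of 1.58 (1.32 to 1.96). All 13 regions were higher in set 2 and 10 were separated, with log2 ratios from -1.3 to -0.52. The fullest (147188101 to 147192350) read 862, 929 and 867 in set 1 against 1171, 1443 and 1308 in set 2.

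**Figure D3:**
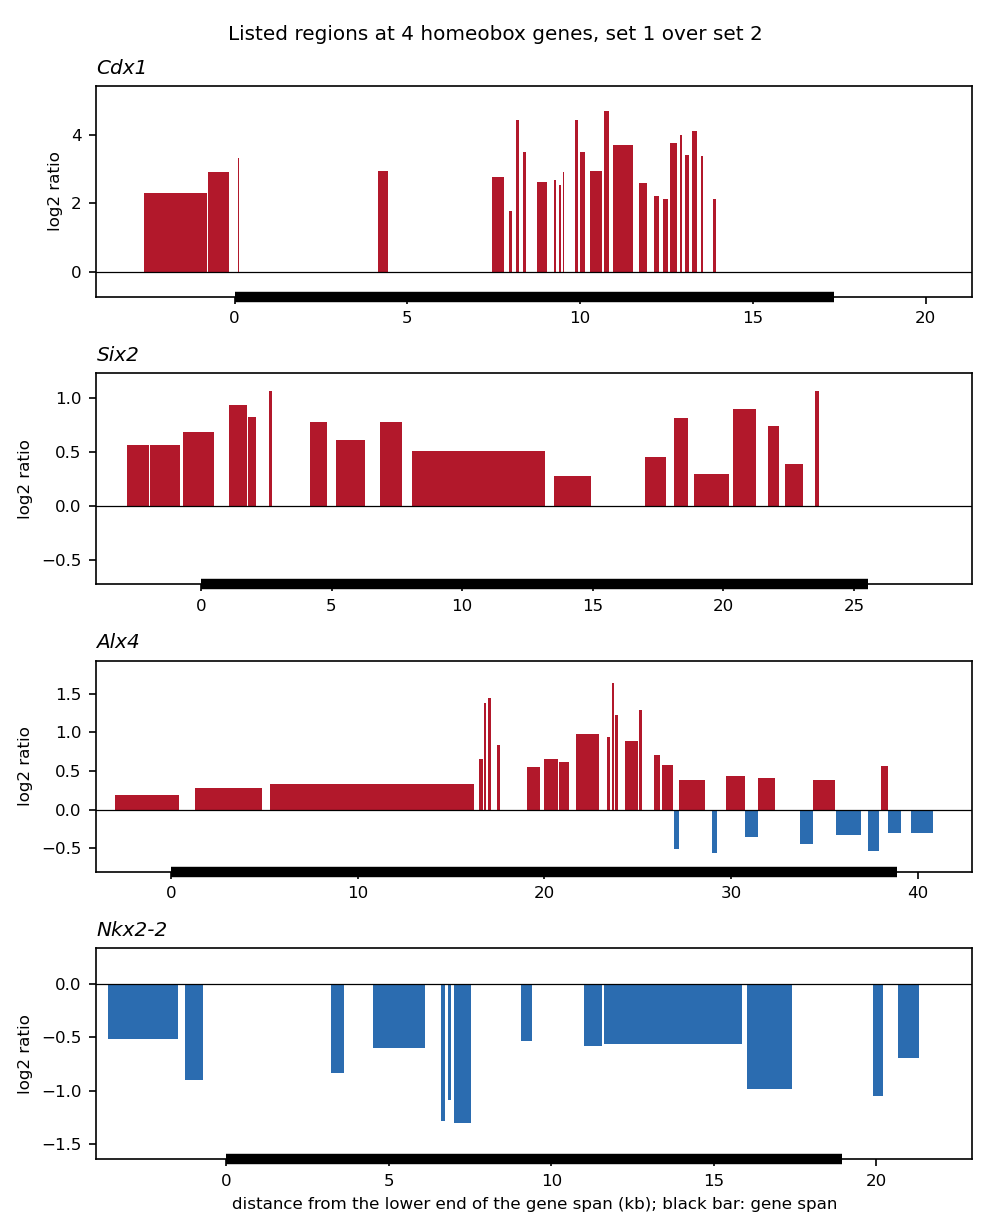
Log2 ratio of set 1 over set 2 (vertical axes, each with its own scale) for each listed region at Cdx1, Six2, Alx4 and Nkx2-2, with bar width equal to region length, against distance in kb from the lower end of the gene span, drawn as a black bar. Cdx1 and Six2 hold regions higher in set 1 only, Nkx2-2 regions higher in set 2 only, and Alx4 turns from uniformly higher in set 1 to mixed at its upper end.

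Msx1 and Msx2, muscle segment homeobox factors of limb, tooth and neural crest, went separate ways. At Msx1 (chromosome 5, 37820491 to 37824585) the sums were 1974, 1797 and 1663 in set 1 against 2578, 2514 and 2589 in set 2, well apart, with set 2 higher by 1.41-fold (1.27 to 1.56) and all 4 regions in that direction. At Msx2 (chromosome 13, 53466881 to 53472780) the sums were 2785, 2746 and 2670 in set 1 against 2441, 2550 and 2407 in set 2. Here set 1 was higher by 1.11-fold (1.05 to 1.16), and after rescaling the log2 ratio turned from 0.15 to -0.05. Regions separated in each direction alternated along Msx2, 2 towards set 1 and 2 towards set 2. One of the latter, 200 bp at the gene start, was 1.8-fold higher in set 2.

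The Dlx genes, distal-less homologues of limb, jaw and forebrain, lie in pairs on 3 chromosomes. Dlx3 and Dlx4 on chromosome 11 were higher in set 1. At Dlx4 (95140447 to 95146294) the regions covered the whole span plus flanks, and the sums were 7517, 7470 and 7282 in set 1 against 6498, 6784 and 6179 in set 2. These do not overlap, but after rescaling they did, the ratio of 1.14 (1.07 to 1.22) becoming a log2 ratio of 0.0. At Dlx3 (95120117 to 95125296) the ratio was 1.24 (1.14 to 1.31). Dlx6 on chromosome 6 was 1.31-fold higher in set 2 with all 4 regions separated, while its neighbour Dlx5 held 1 region, 1.41-fold higher in set 1 with overlapping sets. Dlx1 and Dlx2 on chromosome 2 carried no region, and the nearest lay 205 kb and 192 kb away.

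Among the remaining Nkx genes, which act in heart, lung, thyroid, gut and spinal cord, set 1 was higher at Nkx2-5 (1.29-fold) and Nkx2-3 (1.19-fold). Set 2 was higher at Nkx2-1 (1.3-fold) and Nkx6-1 (1.2-fold). All 4 were separated, as were 81.6% of all genes with a region. At Nkx2-3 (chromosome 19, 43612325 to 43615892) the separation rests on 2 regions that extend beyond the flanks: the 1 region mostly inside was separated towards set 2, at 1.24-fold. After rescaling the sums of Nkx2-3 overlapped, at a log2 ratio of 0.06. Barhl2, a neural factor (chromosome 5, 106452523 to 106458166), and En2, a midbrain and cerebellar factor, were 1.2-fold and 1.18-fold higher in set 2, both separated. Emx1, a cortical factor (chromosome 6, 85187931 to 85204463), gave 2399, 2283 and 2247 in set 1 against 1730, 1989 and 2013 in set 2. It was thus 1.21-fold higher in set 1, without overlap and with 9 of 10 regions in that direction, but after rescaling the sets overlapped, at a log2 ratio of 0.08. Tlx3, a sensory neuron factor (chromosome 11, 33200752 to 33203588), was 1.35-fold higher in set 2 on sums of 212, 219 and 209 in set 1 against 267, 324 and 275 in set 2. Its sets do not overlap, although they do in each of its 2 regions taken alone. With a flank of 5 kb the sets overlapped and the log2 ratio of Tlx3 moved from -0.44 to -0.08. Barhl1 held 1 region with overlapping sets.

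Tlx1, a spleen organiser (chromosome 19, 45150092 to 45156943), had the highest value per length of the 37 genes, 422 per kb and library, and the smallest difference. Its sums were 4137, 4211 and 4068 in set 1 against 4112, 4247 and 3923 in set 2, which overlap fully, a ratio of 1.01 (0.958 to 1.07). Its 8 regions still included 3 separated towards set 1 and 1 towards set 2. Without the third set 2 library the log2 ratio turned from 0.02 to -0.01. Over only its regions at the authors' p under 0.01 the sets were separated towards set 1, at 0.24, and at p under 0.05 at 0.07. That p itself selects regions for a difference between the sets, so this separation is no added support.

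The Iroquois genes, TALE-class factors of heart, limb and neural patterning, lie in 2 clusters of 3. Only the last gene of each carried regions, Irx4 on chromosome 13 and Irx6 on chromosome 8. At Irx4 (73259589 to 73269622), a ventricular factor, the sums were 1068, 1296 and 1140 in set 1 against 1611, 1534 and 1656 in set 2, without overlap, and set 2 was higher by 1.37-fold (1.18 to 1.55) with all 6 regions in that direction. At Irx6 (92674289 to 92680956) set 2 was higher by 1.2-fold (1.05 to 1.37), with 4 of 5 regions in that direction. The other members, Irx1, Irx2, Irx3 and Irx5, had their nearest region 3.08, 30.2, 4.01 and 21.7 kb away.

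In the paired-like class 4 of 8 genes carried regions. Alx4 (chromosome 2, 93642434 to 93681341), a limb and craniofacial factor, carried 31, more than any other gene examined, and they covered 78.5% of it. The sums were 8452, 8499 and 8127 in set 1 against 6688, 7264 and 7012 in set 2, apart by 1.2-fold (1.12 to 1.27). After rescaling the log2 ratio of Alx4 fell from 0.26 to 0.06, with direction and separation kept. Direction changed along this gene. The 18 regions at lower coordinates were all higher in set 1, and the 13 that followed split into 5 towards set 1 and 8 towards set 2, with 5 places where abutting regions pointed in opposite directions. In the longest region (93647751 to 93658650) the libraries gave 3509, 3263 and 3307 in set 1 against 2535, 2920 and 2586 in set 2.

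Gsc, the goosecoid organiser gene (chromosome 12, 104471209 to 104473236), was higher in set 2. Its 3 regions lay in the flanks, and their sums were 268, 276 and 199 in set 1 against 404, 341 and 284 in set 2. The sets are separated by a narrow margin, and the ratio of 1.38 ranged from 1.03 to 2.03. Otx2, a forebrain factor (chromosome 14, 48656781 to 48667644), was 1.11-fold higher in set 1 (1.02 to 1.19) with 6 of 9 regions in that direction, and turned to a log2 ratio of -0.04 after rescaling. Pitx1, a hindlimb and pituitary factor, differed by 1.09-fold with overlapping sets.

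Regions of opposite direction within a gene were common, here and over all genes. Of the 37 genes, 18 held both kinds (48.6%), against 42.7% of all genes with a region, while 10 held regions higher in set 1 only and 9 in set 2 only. At 11 genes both directions included separated regions, namely Lhx1, Lhx5, Nkx2-3, Irx6, Otx2, Barhl2, Emx1, Tlx1, Alx4, Msx2 and Cdx2. These are 29.7% of the 37, against 28.6% of all genes with a region, so the share is close to the background. The sum over such a gene averages opposite differences and does not describe any single region. The edge of the 2 kb flank cut through such stretches. Of 70 regions that touched a flank but not the span, 34 were higher in set 1 (median log2 ratio -0.2), and of 56 between 2 and 4 kb outside, which were not counted, 22 were (median -0.31).

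Most genes had the direction of the surrounding chromosome, at a share close to that over all genes. Listed regions within 500 kb outside the span plus flanks pointed the same way as the gene at 31 of 37 genes (83.8%), against 81.0% of all genes with a region, and at 30 after rescaling. The gene's log2 ratio lay within 0.25 of that of its surroundings at 27 genes. Across the 37 genes the gene and its surroundings correlated at 0.74 (Pearson) and 0.76 (Spearman), at 0.84 and 0.74 without Cdx1, and across all 6598 genes with regions and surroundings at 0.59 and 0.58. These are descriptions, since the points share libraries and neighbouring genes share surroundings. Six2 and Six3 at 1.48-fold and 1.52-fold sat among largely shared surroundings at 1.53-fold for both. These surroundings count the regions of Six3 for Six2 and those of Six2 for Six3, so the comparisons are not independent. Nkx2-2, 1.58-fold higher in set 2, sat among regions 1.69-fold higher in set 2, 12 of 249 pointing to set 1. Lhx6 and Isl1 likewise matched their surroundings, at log2 ratios of 0.99 and -1.33.

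Cdx1 departed most from its surroundings, at a log2 ratio of 2.8 against 0.7. Of the 6 genes that pointed the other way, 3 were separated, namely Gsc, Tlx3 and Msx2. Gsc stood at -0.47 against 0.3 around it, Tlx3 at -0.44 against 0.03 and Msx2 at 0.15 against -0.01. The surroundings of Tlx3, and Msx2 itself, lay within the log2 shift of 0.19 that rescaling removes. The opposite directions at Tlx3 and Msx2 thus depend on scaling. Gbx2 and Lhx2 kept the direction of their surroundings with a smaller ratio, at 0.2 against 0.62 and 0.39 against 0.67. The part of such broad shifts in the difference at each gene was not tested.

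**Figure D4:**
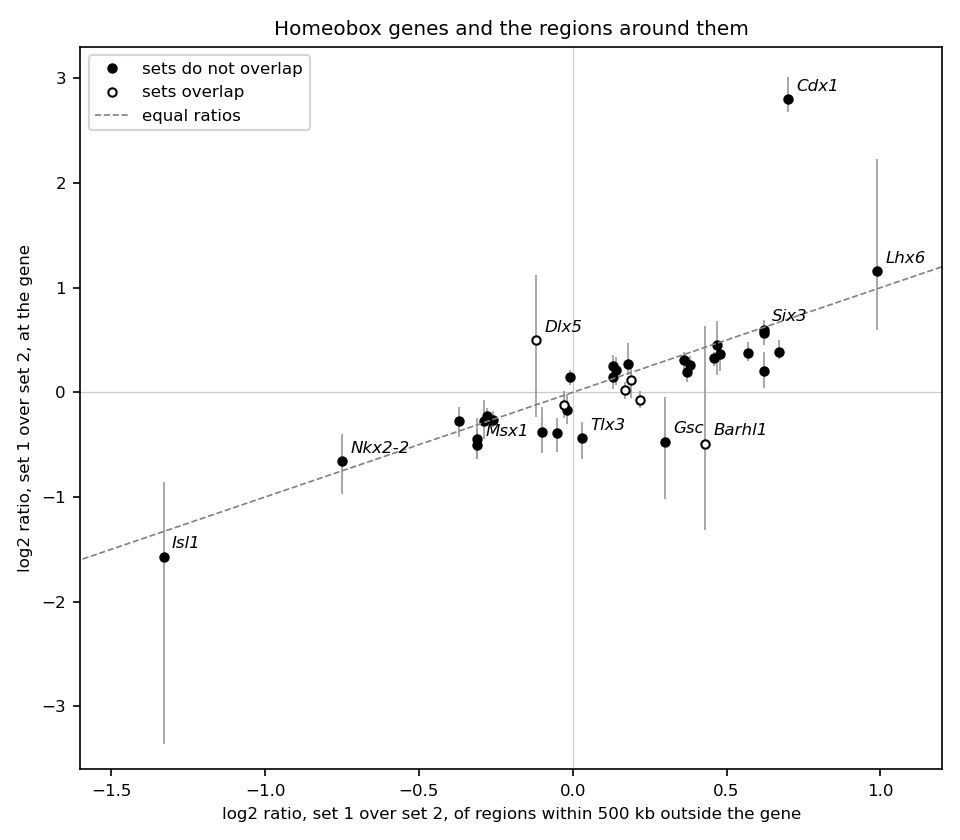
Log2 ratio of set 1 over set 2 at each of the 37 homeobox genes (vertical axis, bars from the lowest to the highest of 9 library pairs) against that of the listed regions within 500 kb outside the gene (horizontal axis), with filled circles where the sets do not overlap. Most points follow the dashed line of equal ratios, and Cdx1 lies far above it (2.8 against 0.7).

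Of the 53 genes, 16 carried no region. These were Lhx8, Lhx9, Nkx3-2, Nkx6-2, Dlx1, Dlx2, En1, Irx1, Irx2, Irx3, Irx5, Otx1, Phox2a, Emx2, Alx1 and Prrx1. Their nearest region lay between 2.46 kb (Otx1) and 205 kb (Dlx1) from the span, with a median of 11.9 kb. Their surroundings within 500 kb were higher in set 1 at 7 genes and in set 2 at 9. The surroundings of Irx1 and Irx2 stood furthest towards set 2, at log2 ratios of -1.77 and -1.37, although neither gene carried a region. At Prrx1, the mesenchymal factor, the nearest region lay 164 kb away, and at Alx1, a craniofacial factor, 139 kb away with 7 regions in all within 500 kb. The promoter windows of the 12 of these genes with a RefSeq entry held a median of 25.0 CpGs, against 18 at the genes with regions. The same comparison over all named genes was not made.

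Another 80 homeobox genes outside the Hox clusters and the Pax family, such as Lmx1b, Hhex and Pou4f1, were counted for comparison. Of these, 53 carried a region (66.2%), against 32.3% of all named genes. In sums, 20 were separated towards set 1 and 20 towards set 2 (37.7% each), against 59.6% and 22.0% of all genes with a region. The median log2 ratio was -0.1, against 0.38 over all genes with a region. Their 508 regions were higher in set 1 in 48.4% of cases, against 63.2% at the genes described above, or 59.1% of those outside Cdx1. The difference between these shares was not tested.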

How the data were processed

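H3K27me3 was profiled in 6 libraries, 3 per construct. The submitters' processing notes name Trimmomatic 0.36, CASAVA, BWA 0.7.17 and the build GRCm38. How regions were called and scaled, and whether inputs entered, is not stated in these sources. The deposited table has no header. Its 6 values per region, split 3 and 3, were taken as a deposited signal of unknown scaling, so no count model was fitted, and sequencing depth is unknown. The authors' deposited p served only in alternatives and to state how the list ends. A sign column disagreed with the values in 0 rows.

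The members and lists were chosen with earlier results of these data known. Spans and promoter windows came from RefSeq (GRCm38.p6, 1-based), with 20493 named protein-coding and long noncoding genes as background. Values of a gene are sums over its regions. Log2 ratios used a pseudocount of 1, with the lowest and highest of the 9 cross-set library pairs as error, since replicate numbers cannot be matched to values. Alternatives were the flank, overlap, p, scaling, pseudocount, window and leaving out each library. Genes described fully were, among those with a total of at least 100, the 6 per direction with the largest separated ratio, the 6 most covered, and those with separated regions in both directions. Cdx1's neighbours fall outside this rule. Overlap and separation were tested on simulated data. Python 3.11.15, numpy 2.4.6 and pandas 2.3.3 were used.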

Additional observations from a re-analysis of the deposited data

How the results depend on the processing

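No paired analysis was possible because the table does not say which value is which replicate. The direction of the median depended on scaling, and its size on the choice of regions: the median log2 ratio over the genes was 0.15 in the main setting, -0.05 with libraries rescaled to equal sums, 0.06 with gene spans alone, 0.25 at the authors' p under 0.01 and 0.0 with most of each region inside, and the cause was not tested. Rescaling changed the genes separated towards set 1 from 18 to 10 and those towards set 2 from 13 to 17. With most of each region inside, these counts were 12 and 13, and with gene spans alone 14 and 9. The balance of 18 against 13 thus depended on the choice of regions as well as on scaling. Regions higher in set 2 numbered 59 with gene spans alone. At p under 0.01, which keeps fewer regions, 95 pointed to set 1 and 34 to set 2. In all, 106 of 114 values of the summary results stayed within the limits set for them, and 313 of 345 values of the 25 fully described genes kept direction and separation. The limits for the summary results were wide, since the fall from 18 to 12 separated genes counted as within them. Those that changed direction were Otx2 (-0.02 with spans alone, -0.04 rescaled), Tlx1 (-0.02 with spans alone, -0.04 with a flank of 5 kb, -0.01 with most of each region inside, -0.18 rescaled, and -0.01 without the third set 2 library), Lhx1 (0.04 with a flank of 5 kb), Nkx2-3 (-0.31 with most of each region inside) and Msx2 (-0.05 rescaled). Sets came to overlap, without a change of direction, at Msx2 (0.04 with spans alone, 0.14 at p under 0.05, 0.04 with most of each region inside), Cdx2 (-0.16 with spans alone and with most of each region inside), Tlx3 (-0.08 with a flank of 5 kb), Otx2 (0.12 at p under 0.01, 0.02 with most of each region inside), Dlx4 (0.11 with most of each region inside, 0.0 rescaled), Nkx2-3 (0.06 rescaled) and Emx1 (0.08 rescaled). They became separated at Lhx1 (-0.3 at p under 0.01, -0.26 rescaled, -0.09 without the second set 2 library), Lhx5 (-0.12 with a flank of 5 kb, -0.14 at p under 0.05, -0.31 rescaled, -0.15 without the second set 1 or the third set 2 library) and Tlx1 (0.07 at p under 0.05, 0.24 at p under 0.01). Separation under a p limit is favoured by that limit, which selects regions for a difference between the sets. The direction at Cdx1, Six2, Six3, Six6, Nkx2-2, Msx1, Isl1 and Lhx6 changed in none of the settings that gave them a value.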

Other observations

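Among homeobox genes outside the list examined, chosen here after their values were seen, Gsx2, a forebrain factor, held 9 regions that all pointed to set 1, the log2 ratio of sums being 2.81. Nanog, a pluripotency factor, stood at 1.8 with 6 of 6 regions higher in set 1, and Meox1, a somite factor, at 1.15 with 11 of 11. All 3 had separated sums, as had 81.6% of all genes with a region.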
